A study of Homo sapiens with 12 samples.

Results

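Transcripts of the aminoacyl-tRNA synthetases were followed in 22Rv1 cells, a line established from a human prostate carcinoma, after exposure to a chemical compound presented by the submitters as blocking the transcription factor ONECUT2. The set held 38 genes chosen by symbol from the platform annotation, with an older symbol lacking the final 1 counted as the cytosolic gene. It comprised 19 cytosolic synthetase genes and 19 mitochondrial genes, the latter being 16 synthetases and the amidotransferase subunits QRSL1, GATB and GATC. Of these, 35 were tested, 17 cytosolic and 18 mitochondrial, among 12635 genes in all. MARS1, QARS1 and TARS2 were represented only by probe sets that the annotation also assigns to a microRNA gene, and are described apart.

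The labels give 4 groups of 3 arrays: cells given vehicle, and cells given the compound for 4 h, 6 h or 16 h. All were grown in RPMI-1640 with fetal bovine serum and antibiotics, and the labels name neither the compound's structure nor its dose. Affymetrix U133 Plus 2.0 arrays were hybridised with RNA amplified from the 3' end of messages. No time is given for the vehicle arrays, and a code element in every other title is missing from those at 16 h, so compound, time in culture and that difference cannot be told apart. The labels do not say whether arrays of a group came from separate cultures, and the p-values speak only of the variation among the arrays at hand, possibly technical.

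Aminoacyl-tRNA synthetases attach each amino acid to its tRNA and so set the genetic code at the level of chemistry. Most cells keep separate nuclear-encoded sets for the cytosol and for the mitochondrion, although GARS1 and KARS1 serve both compartments. Mitochondria make glutaminyl-tRNA indirectly: EARS2 charges the tRNA with glutamate and the amidotransferase of QRSL1, GATB and GATC converts it. When a tRNA stays uncharged, the kinase GCN2, encoded by EIF2AK4, phosphorylates the initiation factor eIF2alpha and translation of the transcription factor ATF4 rises; several cytosolic synthetase genes are known ATF4 targets.

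Values are log2 signals as deposited by the authors, and each gene is represented by its brightest probe set, the group of short oligonucleotides with the highest mean over the arrays. All 35 members lay above the highest unspiked bacterial control probe set, 2.28 at most, on all 12 arrays, with vehicle means from 2.9 for AARS2 to 11.76 for KARS1. Signals of different probe sets depend on their probes, so levels are not ranked between genes. The median SD over 3 arrays was 0.07 and the largest 0.25. "Rose", "fell" and "changed" refer to an adjusted p below 0.05 in limma's moderated test with Benjamini-Hochberg adjustment over the 12635 genes, and errors of a change are the model's standard error (SE).

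Control probe sets differed between the groups, most at 16 h. Signal of the 3' ACTB control exceeded that of the 5' control by 2.80 ± 0.07 log2 units with vehicle (SD, n = 3) and by 4.09 ± 0.09 at 16 h, and the 18S ribosomal RNA signal was 9.62 ± 0.29 and 11.06 ± 0.10 (exact two-sided permutation p = 0.1 for each, the smallest that 3 against 3 arrays allow). The 18S signal was below vehicle by 0.64 at 4 h (8.98 ± 0.14) and by 0.98 at 6 h (8.64 ± 0.19), each with the same exact p of 0.1. For GAPDH the corresponding difference was -0.46 ± 0.02 and -0.43 ± 0.04. All 7 measured luminal prostate and epithelial markers of 9 listed were above the controls on every array, with a mean of 8.21 to 8.28 on vehicle arrays and 7.81 to 7.91 at 16 h. Of 6 fibroblast markers, COL1A1, DCN and LUM were above the controls on every array and COL1A2 and PDGFRB on none, with list means of 2.69 to 2.96 and 3.19 to 3.29. Of 5 measured leukocyte markers CD79A alone was above on every array, with means of 1.90 to 2.03 and 1.79 to 1.99, and of 4 endothelial markers PECAM1 alone, with means of 1.54 to 1.74 and 1.58 to 1.61. In bulk RNA, fewer cells of a type and less RNA per cell cannot be told apart, and the part of these measures in the results below was not tested.

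At 16 h most cytosolic synthetases were higher than in vehicle. The mitochondrial members changed in both directions, at a share near that of all genes. Of 17 cytosolic genes, 12 rose and 0 fell (70.6% changed), led by SARS1, WARS1, YARS1 and CARS1, with a median log2 change of 0.40 and a range from -0.01 to 0.95. Of 18 mitochondrial genes, 2 rose and 5 fell (38.9% changed, near the 42.8% of all genes). Their median change was -0.12, with a range from -0.71 to 0.27. With each array centred on the median of its named probe sets with a mean of 2.11 or more, 0 rose and 7 fell. Across all genes tested 42.8% changed, 26% upward and 16.8% downward, with a median change of 0.05. Together 14 members rose and 5 fell. Under the same centring the split was 12 and 7, and with the mean of each gene's probe sets 9 and 5. EPRS1 counts among the cytosolic rises by its brightest probe set, and fell as the mean of its probe sets.

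The 2 compartments also differed when their genes were averaged on each array. Averaged over the 17 cytosolic genes, the difference from the vehicle mean was 0.39, 0.39 and 0.50 on the 16 h arrays, against -0.02 to 0.03 on all other arrays. Averaged over the 18 mitochondrial genes it was -0.13, -0.12 and -0.05 at 16 h, and already -0.12, -0.03 and -0.05 at 4 h and -0.14, -0.05 and -0.07 at 6 h. The mean over all genes tested was 0.03, 0.08 and 0.10 on the 16 h arrays. The cytosolic average thus stood apart at 16 h alone, while the mitochondrial average at 16 h lay within the range of the earlier times. These averages carry no test, because the members were chosen with results of these arrays known.

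**Figure D1:**
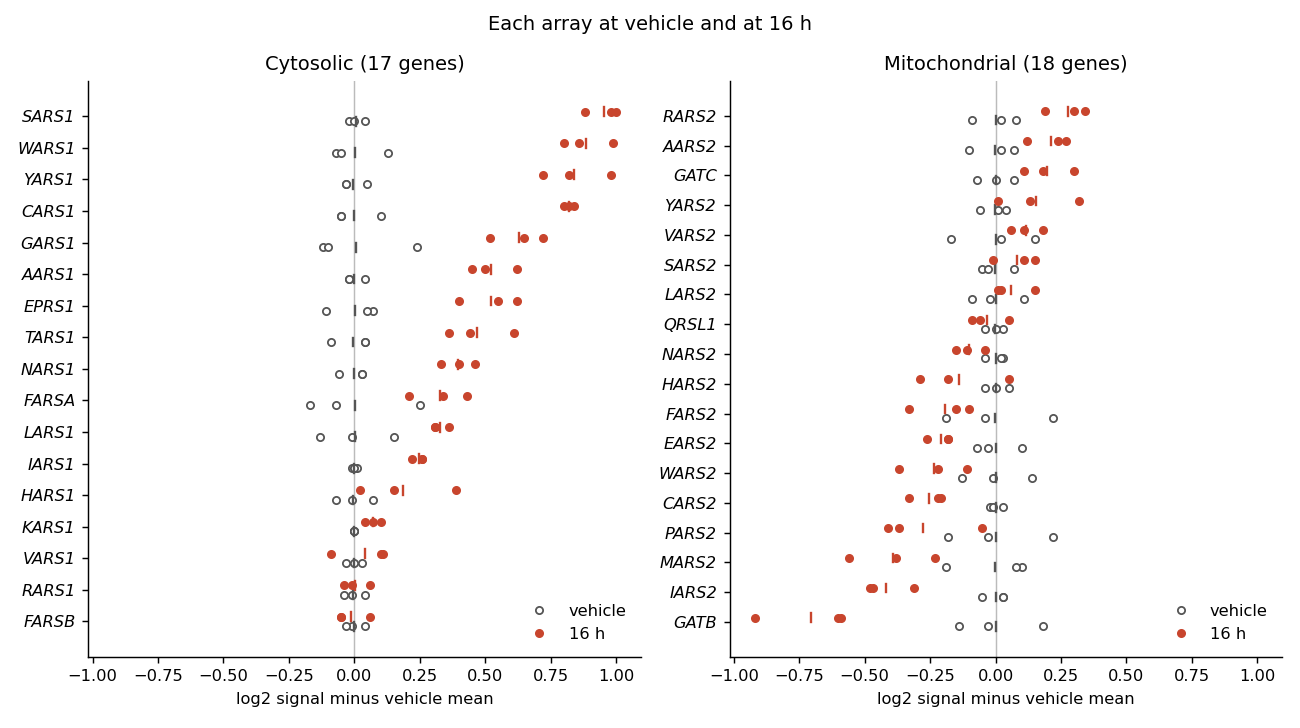
Each member on each vehicle array (open circles) and 16 h array (filled circles), as log2 signal minus the gene's vehicle mean, with a tick at each group mean; cytosolic genes are on the left and mitochondrial genes on the right. All 3 arrays at 16 h lay above all 3 vehicle arrays for 12 of 17 cytosolic and 3 of 18 mitochondrial genes (30.5% of all genes tested), and lay below them for 0 and 6 (20.9% of all genes tested).

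SARS1 had the largest change of the set. SARS1 charges serine tRNAs and also loads serine on the selenocysteine tRNA. Vehicle arrays read 9.30, 9.36 and 9.32, 4 h arrays 9.36, 9.42 and 9.48, 6 h arrays 9.40, 9.49 and 9.50, and 16 h arrays 10.20, 10.30 and 10.32. All 16 h arrays were above every other array, and the rise from vehicle was 1.93-fold (log2 0.95 ± 0.06 SE, limma adjusted p = 3.6e-07). A second SARS1 probe set rose by 1.32 ± 0.07 on the log2 scale (adjusted p = 1.6e-07 over all probe sets tested).

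WARS1, the tryptophanyl-tRNA synthetase and a known interferon-induced gene, read 8.01, 7.81 and 7.83 with vehicle, 7.71, 7.57 and 7.93 at 4 h, 8.01, 7.85 and 7.95 at 6 h, and 8.74, 8.68 and 8.87 at 16 h. Its 16 h arrays did not overlap the others, and it rose 1.84-fold (log2 0.88 ± 0.10 SE, limma adjusted p = 2.6e-05). The tyrosyl-tRNA synthetase YARS1 read 9.18, 9.26 and 9.18 with vehicle, 9.26, 9.20 and 9.25 at 4 h, 9.40, 9.21 and 9.19 at 6 h, and 9.93, 10.03 and 10.19 at 16 h. This was a 1.80-fold rise (log2 0.85 ± 0.08 SE, limma adjusted p = 7.5e-06), again with no overlap. Second probe sets rose for both genes, by 0.43 for WARS1 and 0.92 for YARS1. Both were dim, with vehicle means of 3.52 and 2.89, where the highest control read 2.28 at most.

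CARS1, which charges cysteine tRNAs, had the tightest 16 h arrays of the leading genes. The values were 9.92, 10.07 and 9.92 with vehicle, 10.02, 10.05 and 10.09 at 4 h, 10.09, 10.15 and 10.13 at 6 h, and 10.77, 10.79 and 10.81 at 16 h. CARS1 rose 1.77-fold (log2 0.82 ± 0.06 SE, limma adjusted p = 9.9e-07). GARS1, the glycyl-tRNA synthetase of both compartments, read 10.40, 10.04 and 10.06 with vehicle, 10.16, 10.11 and 10.17 at 4 h, 10.22, 10.15 and 10.08 at 6 h, and 10.68, 10.81 and 10.88 at 16 h. Vehicle replicate 1 was the highest of the arrays before 16 h, yet stayed below all 16 h arrays, and GARS1 rose 1.54-fold (log2 0.62 ± 0.09 SE, limma adjusted p = 0.00028).

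The alanyl-tRNA synthetase AARS1 read 8.40, 8.34 and 8.34 with vehicle and 8.86, 8.81 and 8.98 at 16 h, a 1.43-fold rise with no overlap (log2 0.52 ± 0.06 SE, limma adjusted p = 3.4e-05). Its 4 h arrays read 8.34, 8.31 and 8.30 and its 6 h arrays 8.48, 8.45 and 8.43. TARS1 and NARS1, for threonine and asparagine, rose by 0.47 and 0.40 on the log2 scale. Smaller rises were found in LARS1 (0.32), FARSA (0.32), the catalytic subunit of the phenylalanine enzyme, and IARS1 (0.24). FARSA was the only riser of the cytosolic set whose 16 h arrays overlapped the vehicle arrays, at 6.93, 6.80 and 7.02 against 6.84, 6.42 and 6.52. Its adjusted p was 0.018, and 0.0774, 0.061 and 0.0699 without vehicle replicate 2, vehicle replicate 3 or 16 h replicate 3. As the mean of their probe sets, LARS1 and FARSA differed by 0.13 (adjusted p = 0.142) and 0.14 (adjusted p = 0.15), and the second FARSA probe set read -0.03.

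The 5 cytosolic genes that did not pass at 16 h were HARS1, KARS1, VARS1, RARS1 and FARSB. HARS1, for histidine, differed from vehicle by 0.19 ± 0.10 SE (limma adjusted p = 0.14), with 16 h arrays at 8.69, 8.56 and 8.93. KARS1, the lysyl-tRNA synthetase, read 11.76 on all 3 vehicle arrays and 11.83, 11.80 and 11.86 at 16 h. Those arrays did not overlap, but the difference of 0.06 gave an adjusted p of 0.34. VARS1, RARS1 and FARSB, for valine, arginine and the second phenylalanine subunit, differed by 0.04, 0.01 and -0.01.

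Synthetases can be grouped by structure. The multisynthetase complex binds a set of cytosolic enzymes to scaffold proteins. Of its listed synthetases 5 were measured and 3 rose (LARS1, IARS1 and, by its brightest probe set only, EPRS1), with a median change of 0.24. Outside the complex 9 of 12 rose, with a median of 0.49. By catalytic fold, with EPRS1 counted in class I for its glutamyl part although its prolyl part is class II, 6 of 8 class I enzymes and 6 of 9 class II enzymes rose, with medians of 0.42 and 0.40. Over all genes tested 26% rose. These groups were described by count and were not tested against each other. The scaffold gene measured, AIMP1, fell by 0.15 on the log2 scale (limma adjusted p = 0.045).

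EPRS1 encodes the joined glutamyl- and prolyl-tRNA synthetase, and its probe sets disagreed. Its brightest probe set read 10.13, 10.11 and 9.95 with vehicle, 10.04, 10.07 and 10.05 at 4 h, 10.01, 10.00 and 10.06 at 6 h, and 10.46, 10.61 and 10.68 at 16 h. By this probe set EPRS1 rose 1.43-fold (log2 0.52 ± 0.07 SE, limma adjusted p = 0.00013). The next probe set, 200842_s_at, read 10.35, 9.44 and 9.85 with vehicle, 9.55, 9.12 and 9.16 at 4 h, 9.28, 9.11 and 8.97 at 6 h, and 9.41, 9.37 and 9.03 at 16 h. It was lower at 16 h by 0.61 ± 0.20 SE (adjusted p = 0.029 over all probe sets tested, 0.11 without vehicle replicate 1, 0.058 without vehicle replicate 3 and 0.11 without 16 h replicate 3).

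The dimmest EPRS1 probe set, 200841_s_at, read 5.65, 3.81 and 4.52 with vehicle, 3.75, 3.12 and 2.96 at 4 h, 3.36, 3.31 and 3.08 at 6 h, and 3.10, 2.86 and 2.72 at 16 h. At 16 h its signal was lower by 1.76 ± 0.36 SE (adjusted p = 0.002). Without vehicle replicate 1, the highest array in both of these probe sets, the difference was -1.27 (adjusted p = 0.0025). The differences at 4 h and 6 h, -1.38 and -1.41, had adjusted p of 0.14 and 0.091. They were -0.89 (0.32) and -0.91 (0.19) without vehicle replicate 1, and passed at -1.81 (0.015) and -1.84 (0.008) without vehicle replicate 2. Where along the transcript each probe set lies was not analysed here, and the part of the ACTB 3' to 5' difference in this disagreement was not tested. The direction given for EPRS1 therefore holds for its brightest probe set only.

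**Figure D2:**
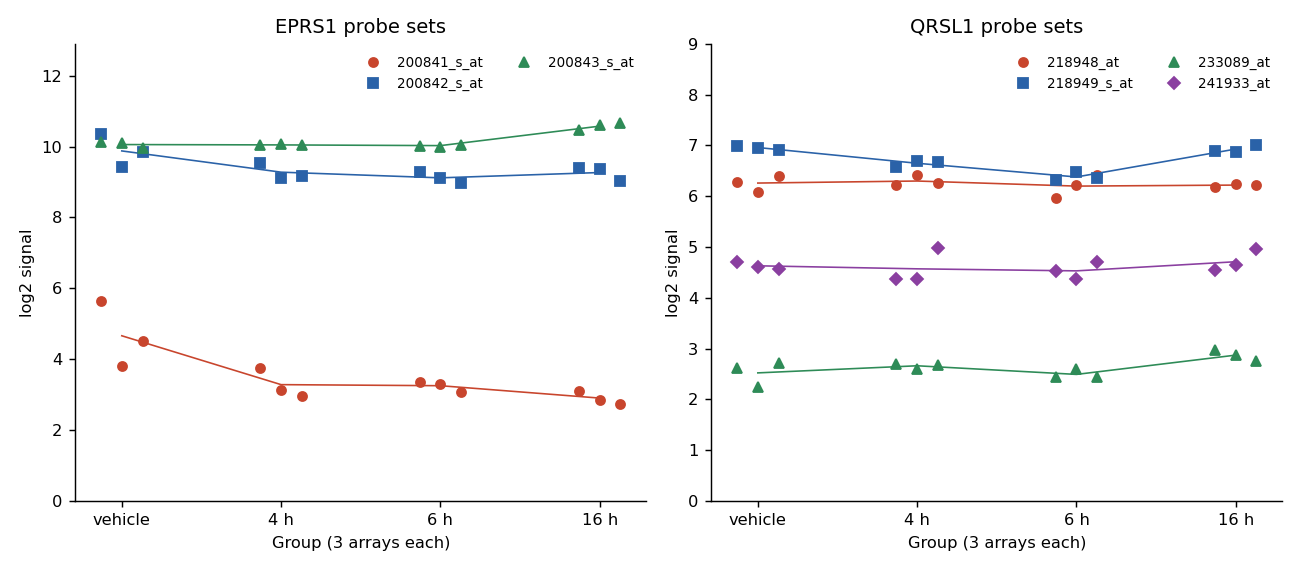
Log2 signal on every array for the 3 EPRS1 probe sets (left) and the 4 QRSL1 probe sets (right) in the 4 groups of 3 arrays; points are arrays and lines join group means. The brightest EPRS1 probe set (triangles) was higher at 16 h while the other two were lower, and 1 QRSL1 probe set (squares) lay below all vehicle arrays at 4 h and 6 h.

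Across all members, 27 second probe sets in 19 genes were bright enough to test. At 16 h, 7 were higher and 2 lower, where 23.3% of all 22708 probe sets tested were higher, 18% lower and 41.2% changed in all. The 14 second probe sets of cytosolic genes gave 6 higher and 2 lower, the latter both of EPRS1. The 13 of mitochondrial genes gave 1 higher and 0 lower by limma. The higher probe set was 1 of QRSL1, dim at a vehicle mean of 2.52, which changed by 0.34 ± 0.11 SE (adjusted p = 0.031). It did not pass without vehicle replicate 2, 16 h replicate 1 or 16 h replicate 2 (limma adjusted p = 0.11, 0.097 and 0.075).

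MARS1, QARS1 and TARS2 could be read only through probe sets shared in name with MIR6758, MIR6890 and MIR6878. The brightest MIR6758/MARS1 probe set read 9.94, 9.84 and 9.99 with vehicle and 10.66, 10.79 and 10.83 at 16 h, higher by 0.84 ± 0.07 SE (adjusted p = 5.6e-06 over all probe sets), and the other MIR6758/MARS1 probe sets were higher by 0.58 and 1.04. The MIR6890/QARS1 probe set read 9.94, 9.93 and 9.94 with vehicle and 9.68, 9.70 and 9.75 at 16 h, lower by 0.23 (-0.23 ± 0.06 SE, adjusted p = 0.01). The MIR6878/TARS2 probe set read 6.54, 6.05 and 6.14 with vehicle and 5.58, 5.45 and 5.87 at 16 h, a difference of -0.61 ± 0.14 SE (adjusted p = 0.0038). The annotation does not separate gene from microRNA here, so no direction is given for these 3 genes and they stand outside the counts. With these probe sets counted under the gene names, QARS1 fell at 16 h (limma adjusted p = 0.0057). It was the only cytosolic fall in that fit.

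Promoter sequences were set beside these changes because several synthetase genes carry the C/EBP-ATF response element, the site through which ATF4 acts, close to their start. RefSeq promoter windows (GRCh38.p14, 250 bases before to 50 after the start, 300 in all) were listed for 33 of the 38 members. LARS1, VARS1, YARS1, AARS2 and VARS2 were not listed. The 8-letter core of the element, TGATGNAA, was searched on both strands. It occurred in 7 of 16 cytosolic genes (43.75%) and 1 of 17 mitochondrial genes (5.88%), against 4.46% of the 27305 genes in the table and 2.84% of the 10301 that were also tested on the arrays. The element was chosen because several synthetase genes were known to carry it, so these shares are no independent evidence. Each match is shown with 11 bases on either side, read 5' to 3' on the strand that carries the core. The core is in capitals. ASNS, the asparagine synthetase gene and a known ATF4 target, is shown as an example of the element and not as a test.
AARS1, chr16:70289675-70289704, plus strand: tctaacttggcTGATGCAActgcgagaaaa
CARS1, chr11:3057407-3057436, plus strand: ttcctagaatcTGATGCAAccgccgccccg
GARS1, chr7:30594834-30594863, minus strand: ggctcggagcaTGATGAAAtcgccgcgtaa
IARS1, chr9:92293692-92293721, plus strand: gcgcacggaggTGATGCAAcgcgctgaaaa
MARS1, chr12:57488053-57488082, minus strand: gaatccctcgcTGATGCAAccggaaccggc
NARS1, chr18:57621804-57621833, minus strand: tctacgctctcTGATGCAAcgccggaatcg
TARS1, chr5:33440956-33440985, minus strand: gctggaccagcTGATGCAAtcgaaaggcgc
YARS2, chr12:32756076-32756105, minus strand: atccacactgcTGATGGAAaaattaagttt
ASNS, chr7:97872458-97872487, minus strand: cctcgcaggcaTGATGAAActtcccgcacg

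The core read TGATGCAA in AARS1, CARS1, IARS1, MARS1, NARS1 and TARS1, TGATGAAA in GARS1 and ASNS, and TGATGGAA in YARS2. Counting the start as 1 and the base before it as -1, the core lay at -2 to 6 in CARS1, -4 to 4 in MARS1, 3 to 10 in TARS1, 15 to 22 in NARS1, -13 to -6 in IARS1 and -33 to -26 in GARS1, thus close to the start. AARS1 had it farther upstream, at -187 to -180, and YARS2 at -197 to -190. All 6 cytosolic genes with a match that were tested rose at 16 h. Of the 8 tested without a match 4 rose, namely FARSA, SARS1, WARS1 and, by its brightest probe set only, EPRS1. YARS1 and LARS1, which rose, and VARS1, which did not pass, have no listed window and stand outside these counts. Over all genes on the arrays with a listed promoter, 31.1% of the 293 with a match rose and 26.0% of the 10008 without one. The cytosolic counts were not tested against these shares. YARS2 had a match and differed by 0.15 ± 0.08 SE (limma adjusted p = 0.14). A match describes letters in a window and shows no binding, and the absence of a match says only that these letters are not in it.

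For a wider view, the 250 bases before the start are given on the gene's strand for AARS1 and IARS1, where the core appears in capitals as its reverse complement, for SARS1, which had the largest rise without a match, and for GATB, which had the largest fall.
AARS1, chr16:70289507-70289756, minus strand: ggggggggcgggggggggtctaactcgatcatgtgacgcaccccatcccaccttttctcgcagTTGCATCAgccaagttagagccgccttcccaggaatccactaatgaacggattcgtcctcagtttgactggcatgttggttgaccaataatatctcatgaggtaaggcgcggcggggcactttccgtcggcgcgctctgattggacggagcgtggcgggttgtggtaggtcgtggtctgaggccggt
IARS1, chr9:92293698-92293947, minus strand: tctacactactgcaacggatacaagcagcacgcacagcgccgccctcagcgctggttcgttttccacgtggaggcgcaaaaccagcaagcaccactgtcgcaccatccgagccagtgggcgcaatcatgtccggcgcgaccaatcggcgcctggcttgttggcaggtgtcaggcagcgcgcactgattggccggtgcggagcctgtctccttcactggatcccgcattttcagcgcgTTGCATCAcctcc
SARS1, chr1:109213643-109213892, plus strand: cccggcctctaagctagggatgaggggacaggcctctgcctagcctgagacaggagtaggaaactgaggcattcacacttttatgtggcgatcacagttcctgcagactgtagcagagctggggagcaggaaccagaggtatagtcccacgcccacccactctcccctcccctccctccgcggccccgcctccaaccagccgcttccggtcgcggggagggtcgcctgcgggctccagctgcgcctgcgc
GATB, chr4:151761008-151761257, minus strand: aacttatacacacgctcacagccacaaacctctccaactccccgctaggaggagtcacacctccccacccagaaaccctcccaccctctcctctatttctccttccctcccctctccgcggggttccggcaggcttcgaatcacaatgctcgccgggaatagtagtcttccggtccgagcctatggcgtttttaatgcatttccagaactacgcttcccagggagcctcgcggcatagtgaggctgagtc

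Among the mitochondrial genes, the amidotransferase subunits moved in different directions. GATB, the subunit that binds the tRNA, had the largest fall of the set: 5.67, 5.46 and 5.35 with vehicle, 5.42, 5.64 and 5.36 at 4 h, 5.46, 5.45 and 5.31 at 6 h, and 4.90, 4.57 and 4.89 at 16 h. All 16 h arrays were below every other array, and the fall was 1.63-fold (log2 -0.71 ± 0.11 SE, limma adjusted p = 0.00043). GATC, the small subunit, read 6.92, 6.99 and 7.06 with vehicle, 7.09, 7.09 and 7.12 at 4 h, 7.03, 7.03 and 7.16 at 6 h, and 7.17, 7.10 and 7.29 at 16 h. GATC rose 1.15-fold (log2 0.20 ± 0.07 SE, limma adjusted p = 0.035).

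QRSL1, the catalytic subunit, was the only member that differed from vehicle before 16 h, when 0.0317% of all genes changed at 6 h and 0.00791% fell. It read 6.99, 6.96 and 6.92 with vehicle, 6.58, 6.69 and 6.68 at 4 h, 6.32, 6.48 and 6.35 at 6 h, and 6.90, 6.87 and 7.01 at 16 h. The 4 h and 6 h arrays all lay below the vehicle arrays, and the 16 h arrays overlapped them. QRSL1 was 1.49-fold lower at 6 h (log2 -0.57 ± 0.07 SE, limma adjusted p = 0.026), with -0.31 ± 0.07 SE at 4 h (adjusted p = 0.085) and -0.03 at 16 h (adjusted p = 0.76). This rests on 1 probe set, 218949_s_at; the other 3 gave -0.06, -0.10 and -0.03 at 6 h. Leaving out vehicle replicate 1, vehicle replicate 3, 6 h replicate 1 or 6 h replicate 3 gave an adjusted p of 0.22, 0.14, 0.11 and 0.23, and leaving out 4 h replicate 2 or 16 h replicate 2 gave 0.061 and 0.055.

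IARS2, the mitochondrial isoleucyl-tRNA synthetase, fell. Its arrays read 11.14, 11.22 and 11.22 with vehicle, 11.20, 11.18 and 11.20 at 4 h, 11.11, 11.20 and 11.16 at 6 h, and 10.71, 10.88 and 10.72 at 16 h. The 16 h arrays did not overlap any other, and the fall was 1.34-fold (log2 -0.42 ± 0.06 SE, limma adjusted p = 0.00026). MARS2, for methionine, read 7.07, 7.36 and 7.34 with vehicle, 7.19, 7.15 and 7.22 at 4 h, 7.13, 7.12 and 7.16 at 6 h, and 6.88, 7.03 and 6.70 at 16 h. MARS2 fell 1.31-fold (log2 -0.39 ± 0.09 SE, limma adjusted p = 0.0054), its 16 h arrays lying below all others.

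CARS2, for cysteine, read 6.58, 6.53 and 6.54 with vehicle, 6.45, 6.47 and 6.64 at 4 h, 6.39, 6.34 and 6.45 at 6 h, and 6.33, 6.22 and 6.34 at 16 h. It fell 1.19-fold (log2 -0.25 ± 0.07 SE, limma adjusted p = 0.011), with no overlap between 16 h and vehicle arrays; as the mean of its probe sets the difference was -0.02 (adjusted p = 0.78). WARS2, for tryptophan, was lower by 0.23 (-0.23 ± 0.08 SE, limma adjusted p = 0.039), with overlapping arrays. It did not pass when any of vehicle replicates 1 and 2, 4 h replicates 2 and 3, 6 h replicates 2 and 3, or 16 h replicates 1 and 2 was left out (adjusted p from 0.0502 to 0.154), and its probe set mean gave -0.05 (adjusted p = 0.514).

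RARS2, for arginine, was the only mitochondrial synthetase that rose, with 8.43, 8.26 and 8.37 on vehicle arrays, 8.36, 8.32 and 8.13 at 4 h, 8.44, 8.39 and 8.23 at 6 h, and 8.54, 8.69 and 8.65 at 16 h. The rise was 1.21-fold (log2 0.27 ± 0.08 SE, limma adjusted p = 0.021). RARS2 no longer passed when vehicle replicate 2, 16 h replicate 2 or 16 h replicate 3 was left out (adjusted p = 0.0798, 0.0722 and 0.0566). GATC no longer passed when vehicle replicate 1, vehicle replicate 2, 16 h replicate 1 or 16 h replicate 3 was left out (adjusted p = 0.116, 0.0741, 0.0543 and 0.128). Neither passed under median centring of the arrays, with differences of 0.21 and 0.14. When each gene's probe sets were averaged, the differences were 0.01 for RARS2 (adjusted p = 0.897) and 0.06 for GATC (adjusted p = 0.557), and the second RARS2 probe set bright enough to test read -0.13.

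The remaining 11 mitochondrial genes did not pass at 16 h. PARS2, EARS2, FARS2, HARS2, NARS2 and QRSL1 had differences from -0.28 to -0.03, and AARS2, YARS2, VARS2, SARS2 and LARS2 from 0.06 to 0.21. EARS2, which supplies the substrate of the amidotransferase, read 5.89, 5.93 and 6.06 with vehicle and 5.78, 5.70 and 5.78 at 16 h, without overlap (adjusted p = 0.14). PARS2, for proline, differed by -0.28 with an adjusted p of 0.083, and with 0.0165 and 0.0267 under quantile normalisation and median centring. Counted over the 15 measured mitochondrial synthetases alone, 1 rose and 4 fell (26% and 16.8% of all genes), with a median of -0.14.

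Placed on the distribution of all genes tested, the members lay inside its extremes. The changes of all genes at 16 h ran from -2.89 to 6.70, and the members from -0.71 to 0.95. At 16 h, 21 members had arrays that did not overlap the vehicle arrays, 15 above and 6 below, where 51.5% of all genes did not overlap, 30.5% above and 20.9% below.

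**Figure D3:**
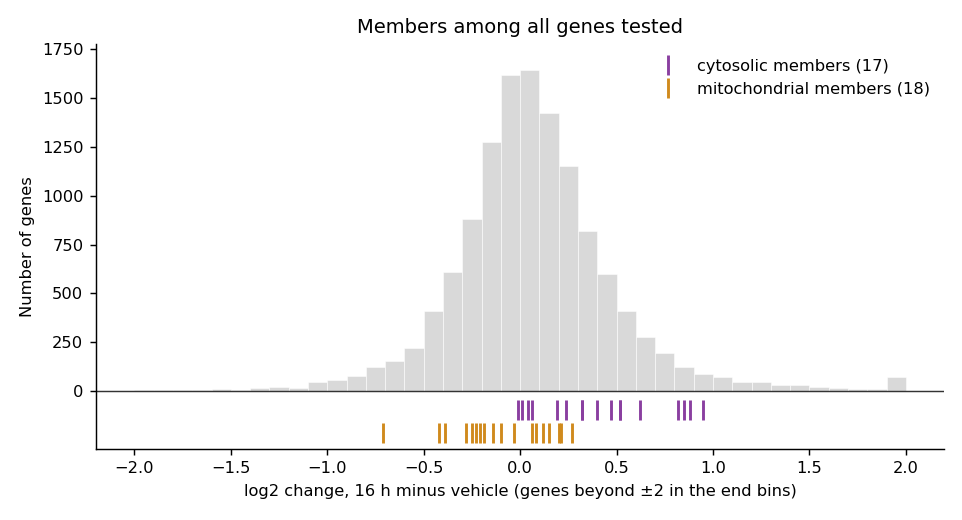
Histogram of the log2 change from vehicle at 16 h for all 12635 genes tested, with genes beyond 2 in either direction in the end bins, and ticks below for the 17 cytosolic and 18 mitochondrial members. Cytosolic ticks lie between -0.01 and 0.95, mitochondrial ticks between -0.71 and 0.27.

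For 14 pairings the same amino acid has a measured enzyme gene in each compartment, EPRS1 serving for both glutamate and proline. At 16 h the cytosolic change was the higher of the pair in 12 of 14, and in 10 of 14 when genes were taken as the mean of their probe sets, where EPRS1 is at -0.62. The difference was 1.12 for tryptophan (WARS1 0.88, WARS2 -0.23), 1.07 for cysteine (CARS1 0.82, CARS2 -0.25) and 0.87 for serine (SARS1 0.95, SARS2 0.08). The isoleucine enzymes moved in opposite directions, IARS1 up by 0.24 and IARS2 down (-0.42). The exceptions were arginine, with RARS1 at 0.01 and RARS2 at 0.27, and valine, with VARS1 at 0.04 and VARS2 at 0.12. The median difference over the pairings was 0.59. At 4 h and 6 h the cytosolic change was the higher in 10 and 11 of 14, when no member but QRSL1 was called. The differences within pairs were not tested.

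**Figure D4:**
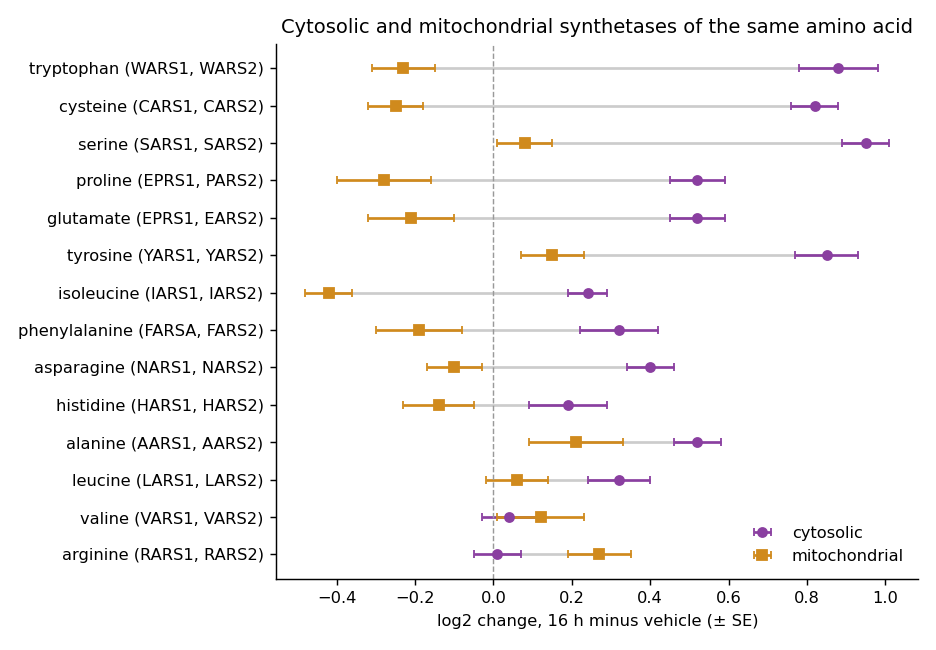
Log2 change from vehicle at 16 h (points, with the SE as bars, n = 3 arrays per group) of the cytosolic (circles) and mitochondrial (squares) synthetase gene for the same amino acid, ordered by the difference. Tryptophan has the widest gap, 1.12, and arginine and valine at the bottom are the pairs where the mitochondrial change was the higher.

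Before 16 h the set showed little that passed. At 4 h, 0 of 35 members changed by limma (2 at an unadjusted p below 0.05), where 0.459% of all genes changed, and 6 members had arrays outside the vehicle range, beside 18.3% of all genes. The median change was 0.01 for cytosolic and -0.05 for mitochondrial genes. At 6 h, 1 member changed, QRSL1, which fell (5 at an unadjusted p below 0.05), where 0.0317% of all genes changed and 0.00791% fell, and 8 members lay outside the vehicle range, beside 14.4%. The medians were 0 and -0.08. Between 6 h and 4 h, 0 members changed by limma, beside 0.095% of all genes.

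The direct comparisons between treated groups use the same 16 h arrays as the comparison with vehicle. Against 4 h, 20 members changed at 16 h, 16 higher and 4 lower, where 40.9% of all genes changed, 24.8% higher and 16.1% lower. Against 6 h, 17 changed, 14 higher and 3 lower, where 42.7% of all genes changed, 25.1% higher and 17.6% lower. SARS1 was higher by 0.85 and 0.81, WARS1 by 1.03 and 0.83 and YARS1 by 0.81 and 0.78 than at 4 h and 6 h. VARS2 passed in both, by 0.40 and 0.28, without differing from vehicle beyond the threshold at 16 h. Its call against 6 h was lost in 13 of 22 alternatives, with 0.15 (adjusted p = 0.166) under quantile normalisation and 0.17 (adjusted p = 0.138) under median centring. QRSL1 was higher by 0.28 and 0.54. GATB was lower in both (-0.68 and -0.62), as was IARS2 (-0.43 and -0.39). Median centring, on each array's named probe sets with a mean of 2.11 or more, moved the median of all genes from 0.04 to -0.07 against 4 h. Against 6 h the median moved from 0.03 to -0.08. The split of all genes called higher and lower then went from 3130 and 2038 to 2073 and 3121 against 4 h. Against 6 h the split went from 3168 and 2222 to 2229 and 3453. The members' split became 10 higher and 7 lower against 4 h and 12 and 6 against 6 h.

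**Figure D5:**
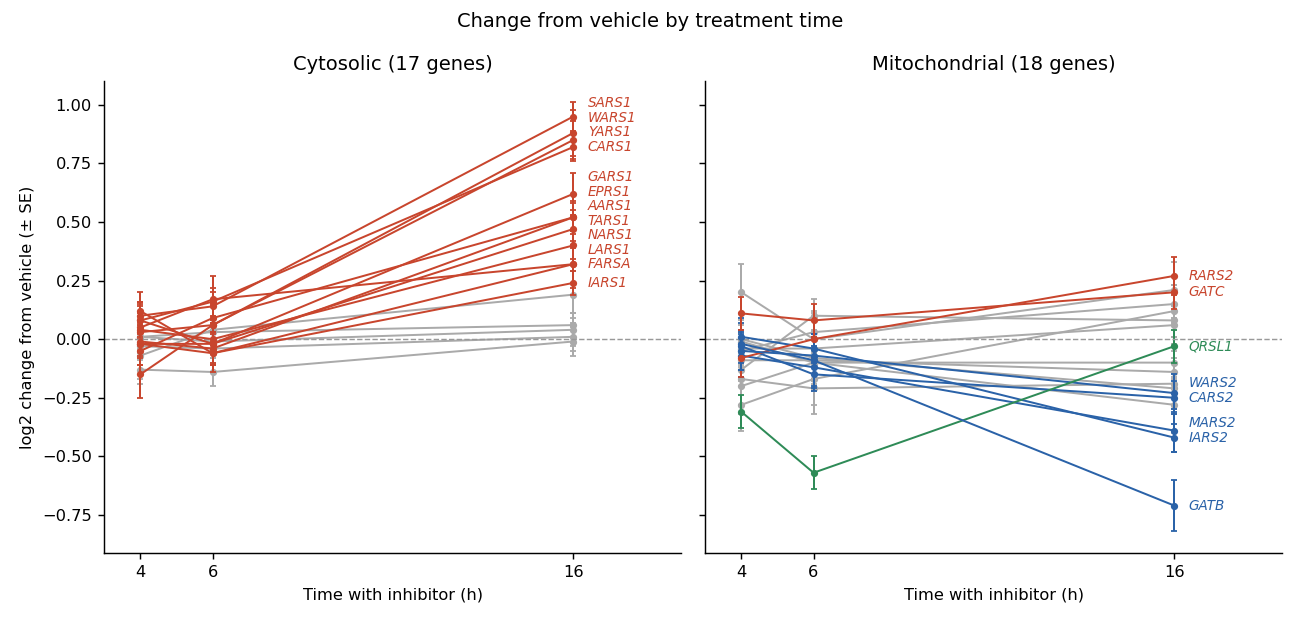
Log2 change from vehicle (points, with the SE as bars, n = 3 arrays per group) against hours with the compound for 17 cytosolic and 18 mitochondrial genes; red lines rose and blue lines fell at 16 h, grey lines did not pass, and QRSL1, lower at 6 h, is green. Cytosolic changes at 4 h and 6 h lie between -0.15 and 0.17 and spread up to 0.95 at 16 h.

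Genes that act around the synthetases were read from lists, each by its brightest probe set in the main fit alone. A list was drawn up for the sensing of uncharged tRNA and the response to it. Of its 16 genes, 15 rose and 0 fell at 16 h (26% and 16.8% of all genes), with a median of 1.23. The list holds genes already known to be high on these arrays. Charging of tRNA was not measured, and what raised these genes was not tested. SESN2 rose 10.6-fold, DDIT4 8.37-fold and ATF3 4.70-fold, and ASNS rose 2.23-fold. The sensor kinase gene EIF2AK4 rose by 0.25 and its partner GCN1 by 0.34 on the log2 scale, and ATF4 by 0.67. IMPACT, an inhibitor of GCN2, differed by 0.22 (limma adjusted p = 0.075). At 4 h only ATF3 of the list changed, and at 6 h no gene of any related list changed.

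Genes of tRNA maturation, export and editing had 9 risen and 3 fallen of 25 measured (48% changed, near the 42.8% of all genes), with a median of 0.09. TRMT1, a tRNA guanine methyltransferase, rose 1.76-fold (log2 0.81 ± 0.10 SE, limma adjusted p = 5.3e-05) but was dim, with a vehicle mean of 3.41. XPOT, the nuclear export receptor of tRNA, rose 1.58-fold from 10.42 ± 0.08 to 11.07 ± 0.11 (SD, n = 3). TSEN54, a subunit of the tRNA splicing endonuclease, fell by 0.39 on the log2 scale. Of 5 measured cytosolic elongation factor genes 1 rose (EEF1D, 0.28) and 2 fell (EEF1A2, -0.60, and EIF5A, -0.25), 60% in all, with a median of -0.08. Mitochondrial translation factors and tRNA modification genes had 2 risen and 1 fallen of 16 (18.8% changed, against 42.8% of all genes), with a median of 0.06. They were MTO1 (0.86 ± 0.08 SE, limma adjusted p = 5.4e-06) and MTRF1L (0.25), which rose, and GTPBP3 (-0.32), which fell. MTO1 and GTPBP3 act together in modifying the wobble base of mitochondrial tRNAs.

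LARS1 also acts as a leucine sensor upstream of the kinase complex mTORC1. Of 8 genes of that arm, 1 rose, FLCN (log2 1.04 ± 0.15 SE, limma adjusted p = 0.00019), and 2 fell, MLST8 (-0.30) and RRAGA (-0.24), with a median of -0.10 and 37.5% changed, near the 42.8% of all genes.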

How the data were processed

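Gene expression was measured on 12 Affymetrix arrays. Values deposited by the authors are log2 signals of 54675 probe sets, summarised with GCRMA per the submitters' processing notes (version not given in the sources used here). GCRMA corrects background by probe sequence and normalises arrays to a common distribution, which hides any shift common to most genes. Array medians were 2.1 to 2.15, and the number of arrays limits the precision.

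Probe sets were named through the platform annotation, updated by Entrez identifier against a RefSeq table: 41097 had 1 symbol, 1801 several and 11777 none. After 62 control probe sets were set aside, 41091 named 19775 genes (41037 symbols by RefSeq, 54 as annotated). A gene was its brightest probe set, kept for testing at a mean of 2.11 (the median of all probe set means) or more. The members had 75 probe sets, of which 62 passed this filter. Each gene had 4 group means in a linear model (limma 3.58.1, R 4.3.3; lmFit, eBayes; 8 residual and 3.69 prior degrees of freedom), two-sided, with Benjamini-Hochberg adjustment over 12635 genes at 0.05; the fit was tested on simulated data. Array controls were compared by exact permutation.

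Members and related lists were chosen with earlier results of these data known. Values per array are given for the 6 largest rises and 4 largest falls of each compartment at 16 h, for members called earlier and for those whose probe sets passed in opposite directions. Other members are given by change, and array values of AARS1, FARSA, HARS1, KARS1 and EARS2 outside that rule were chosen after they were seen. Alternatives were other scalings, filters, probe set choices, priors, array weights, a replicate block and leaving out each array. Median centring aligned the arrays on the median of their named probe sets with a mean of 2.11 or more. The probe sets shared with a microRNA, and the EPRS1 and QRSL1 probe sets without each array, were added after seeing the data.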

Additional observations from a re-analysis of the deposited data

Results flagged for a closer look

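The change from vehicle differed between treatment times for 20 members between 16 h and 4 h and for 17 between 16 h and 6 h, by limma's test of the difference between the times. Both comparisons use the same 16 h arrays. Against 4 h, the log2 differences of the 16 higher members were WARS1 (1.03), SARS1 (0.85), YARS1 (0.81), CARS1 (0.74), GARS1 (0.64), AARS1 (0.57), EPRS1 (0.53), VARS2 (0.40), TARS1 (0.39), NARS1 (0.35), RARS2 (0.35), FARSA (0.28), QRSL1 (0.28), IARS1 (0.27), HARS1 (0.26) and SARS2 (0.21). The 4 lower members were GATB (-0.68), IARS2 (-0.43), MARS2 (-0.32) and CARS2 (-0.22). Against 6 h, the 14 higher members were WARS1 (0.83), SARS1 (0.81), YARS1 (0.78), CARS1 (0.67), GARS1 (0.64), EPRS1 (0.56), QRSL1 (0.54), TARS1 (0.49), AARS1 (0.43), NARS1 (0.39), LARS1 (0.38), IARS1 (0.31), VARS2 (0.28) and RARS2 (0.27). The 3 lower members were GATB (-0.62), IARS2 (-0.39) and MARS2 (-0.26). HARS1, QRSL1, SARS2 and VARS2 passed against 4 h without passing against vehicle at 16 h. The HARS1 and SARS2 calls against 4 h were lost in 15 of 22 and 11 of 21 alternatives. Under median centring HARS1 gave 0.15 (limma adjusted p = 0.239) and SARS2 0.10 (limma adjusted p = 0.323). The FARSA call against 4 h was lost in 11 alternatives. Against 6 h the MARS2 call was lost in 7 and the RARS2 call in 5. As the mean of its probe sets, EPRS1 differed by 0.05 from 4 h (limma adjusted p = 0.85) and by 0.12 from 6 h (limma adjusted p = 0.62).

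Probe sets outside the main measurement, annotated to MIR6758 and MARS1 together, were higher at 16 h than on vehicle arrays by 0.58, 0.84 and 1.04 on the log2 scale.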

How the results depend on the processing

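Across 22 alternatives that gave 1 value per gene, 9 cytosolic rises (AARS1, CARS1, GARS1, IARS1, NARS1, SARS1, TARS1, WARS1 and YARS1) and 3 mitochondrial falls (GATB, IARS2 and MARS2) were called at 16 h in every fit. Over all 1601 comparisons of a single member with an alternative, these included, 1457 kept sign and side of the threshold, 14 changed sign without passing in either fit, 117 lost the call, 11 gained it and 2 changed the sign of a call. EPRS1 at 16 h was -0.62 (adjusted p = 0.014) as the mean of its probe sets, and QRSL1 at 16 h against 4 h was -0.084 (adjusted p = 0.58) when probe sets ending in _s_at or _x_at were avoided; in each the alternative takes in other probe sets. Cytosolic falls at 16 h numbered 0, and 1 with the mean of probe sets (EPRS1), with every probe set (EPRS1) and with probe sets shared with a microRNA (QARS1). Mitochondrial rises numbered 2, and 1 with quantile normalisation, no filter, a trended and robust prior or array weights (RARS2 in each), and 0 with median centring or the mean of probe sets; the cause was not tested. Members changed at 4 h numbered 0, and 1 with a filter at the 75th percentile (QRSL1), where fewer genes were tested. Members changed at 6 h numbered 1, and 0 with no filter, the mean of probe sets, or avoidance of _s_at and _x_at probe sets. Leaving out each array gave 11 to 12 cytosolic rises, 0 cytosolic falls, 0 to 2 mitochondrial rises, 4 to 7 mitochondrial falls, 0 changes at 4 h, 0 to 1 at 6 h, 16 to 19 against 4 h and 14 to 17 against 6 h. With the replicate block the counts were 12, 0, 2, 5, 0, 1, 20 and 17, with WARS2 lost and PARS2 gained among the mitochondrial falls. By their labels the arrays share only a number. Correlations of deviations from the group means ran from -0.0045 to 0.2352 for same-numbered arrays and from -0.1865 to 0.1298 for the other pairs. Of 12 arrays, 7 correlated best with their own number, and whether a number marks shared handling was not tested. With 3 arrays a group, small changes of dim members such as AARS2 and PARS2 were not resolved.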

Other observations

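Genes listed for the making and use of selenocysteine and formyl-methionine tRNAs changed in both directions. Of 7 measured, 3 rose and 3 fell at 16 h (85.7% changed, against 42.8% of all genes), with a median of -0.33. Selenocysteine is made on its tRNA from serine loaded by SARS1. SEPHS2, which makes the selenium donor, rose 2.02-fold (8.84 ± 0.02 to 9.85 ± 0.11, SD, n = 3; limma adjusted p = 3.1e-07). PSTK, the kinase that phosphorylates the loaded serine, rose 1.81-fold, and SEPSECS, the synthase that acts after it, rose 1.5-fold. PSTK was dim, with a vehicle mean of 3.01, where the highest control read 2.28 at most. SECISBP2, the protein that binds the selenocysteine insertion element, fell 2.14-fold (log2 -1.10 ± 0.11 SE, limma adjusted p = 9.1e-06), with differences of -0.37 at 4 h and -0.47 at 6 h that did not pass. SEPHS1 fell by 0.36 and MTFMT, the mitochondrial formyltransferase of methionyl-tRNA, by 0.33 on the log2 scale.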
